A study of Mus musculus with 9 samples.

Results

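The genes of the interferon response and of innate nucleic acid sensing were followed in mouse embryonic stem cells kept in 3 culture media. The set holds 37 genes chosen by symbol from knowledge of the pathway, with earlier results of these data known. All 37 were among the 24819 gene symbols of the expression table. They were grouped by role as interferon receptors, nucleic acid sensors with their adaptor, transcription factors of the signal, effectors that act on double-stranded RNA, the ISG15 and IFIT group, effectors at membranes, and other induced genes.

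All cells were of the E14 line, an embryonic stem cell line established from a mouse blastocyst, and all were grown on gelatin, so no feeder layer is named. In the EPSCM group the cells were kept in expanded potential stem cell medium, whose components the labels do not list. In the 2iLIF group they were kept in serum-free N2B27 medium with leukemia inhibitory factor (LIF) and the inhibitor pair called 2i, which block MEK and GSK3. In the ES group they were kept in medium with fetal bovine serum and LIF. The labels name no genetic change and no other treatment in any group, and the cells were kept stably in each medium. Each medium had 3 libraries of messenger RNA, named below by medium and library number: EPSCM 7, 12 and 19, 2iLIF 5, 6 and 18, and ES 2, 4 and 16. Whether the libraries of a medium are separate cultures is not stated in the labels, so a p-value covers the variation among these libraries alone, and that may be technical.

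Cells detect viral RNA with sensors such as RIG-I, MDA5 and TLR3. These signal through adaptors, such as MAVS for RIG-I, to the transcription factor IRF3 and so to the interferon genes. Secreted interferon binds its receptors and acts through the transcription factor ISGF3, which holds STAT2 and IRF9. ISGF3 binds the interferon-stimulated response element (ISRE) before genes that block viruses, while interferon gamma acts through the gamma-activated site (GAS). Pluripotent stem cells are known to make little interferon and to respond weakly to it, while holding some of the membrane effectors at a high level without it.

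Values are FPKM, fragments per kilobase of transcript scaled to library size. Library values are given in the library order above, and means with their SD (n = 3 libraries). Differences are on the log2(FPKM + 1) scale with their standard error, and the change of a gene with low values is understated on that scale. To be called higher or lower, a gene needed both a limma adjusted p below 0.05 and a difference of 1 or more on that scale, the fold limit. Of the 37 genes, 24 reached 1 FPKM in at least 3 of the 9 libraries and were tested, as were 12330 genes in all. The libraries summed to 546636 to 600728 FPKM and had 11155 to 11764 genes at or above 1 FPKM. The table holds no counts. From the steps between its lowest values, 1 fragment in a transcript of 1 kb was worth about 0.0382 to 0.0475 FPKM, which is approximate, since lengths were taken from a different annotation than that of the authors. The first principal components of all tested genes, at 48.9% and 41.3% of the variance, separated the media, and the third, at 6.46%, set 1 library of each medium apart: EPSCM 19, 2iLIF 18 and ES 16. All 8 of the listed markers of pluripotent cells were at or above 1 FPKM in every medium, and their levels summed to 2026 to 2148 FPKM in EPSCM, 2612 to 2910 in 2iLIF and 3764 to 4198 in ES. Of the blood cell markers 10 of 11 were in the table. Only Cd68 and Laptm5 reached 1 FPKM, the list summed to 52.2 to 59.6 FPKM in EPSCM, 101.6 to 107.4 in 2iLIF and 100.6 to 112.2 in ES, and Tyrobp was listed at 0 throughout. Fibroblast markers summed to 10.9 to 13.7, 3.75 to 4.18 and 15.0 to 17.6 FPKM in EPSCM, 2iLIF and ES, with only Thy1 and Pdgfrb reaching 1 FPKM. Endothelial markers summed to 44.6 to 56.2 FPKM in EPSCM, 23.7 to 27.1 in 2iLIF and 30.2 to 33.6 in ES, primitive endoderm markers to 51.0 to 56.5, 33.2 to 37.0 and 32.0 to 35.7, and trophoblast markers to 48.7 to 59.8, 73.2 to 84.8 and 28.6 to 33.0, in the same order of media. Markers within a list did not all follow its sum. Of the trophoblast markers, Krt8 averaged 6.16, 47.6 and 6.9 FPKM in that order of media. Cdx2 and Krt7 also had their highest mean in 2iLIF. Tfap2c averaged 37.35, 21.7 and 18.25 FPKM, and Krt18, Gata3 and Hand1 were likewise highest in EPSCM. Of the primitive endoderm markers, Col4a1 averaged 27.1, 3.31 and 5.79 FPKM, and Lama1 17.1, 28.7 and 21.7. Gata6, Gata4, Dab2 and Sox17 were also highest in EPSCM, and Foxa2 in 2iLIF. Sox7 averaged 0.0315, 0.0422 and 2.79 FPKM. Of the pluripotent cell markers, Nanog and Esrrb had their highest mean in 2iLIF and the others in ES. Of the endothelial markers, Cldn5, Egfl7 and Vwf were highest in EPSCM, and Tek, Tie1 and Cdh5 in ES. The part of these cell types in the results below was not tested.

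The bases before the start of 5 members are shown because they hold the ISRE core before genes that behaved differently in these cells: Stat2 was highest in EPSCM, Oas1a in 2iLIF and Bst2 in ES, while Isg15 and Ifit1 were at or near 0 in all 3 media. Each is the stretch of 250 bases before the start in RefSeq's annotation of GRCm38.p6, written along the gene's own strand, and capitals mark matches to the ISRE core GAAANNGAA on either strand, where N is any base and overlapping matches run together.
Stat2, chr10:128270248-128270497, plus strand: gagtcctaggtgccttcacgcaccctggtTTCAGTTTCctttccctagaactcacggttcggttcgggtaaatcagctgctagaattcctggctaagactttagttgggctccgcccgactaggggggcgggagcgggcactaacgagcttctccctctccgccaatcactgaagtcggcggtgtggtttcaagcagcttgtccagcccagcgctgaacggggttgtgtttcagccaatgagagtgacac
Oas1a, chr5:120907526-120907775, minus strand: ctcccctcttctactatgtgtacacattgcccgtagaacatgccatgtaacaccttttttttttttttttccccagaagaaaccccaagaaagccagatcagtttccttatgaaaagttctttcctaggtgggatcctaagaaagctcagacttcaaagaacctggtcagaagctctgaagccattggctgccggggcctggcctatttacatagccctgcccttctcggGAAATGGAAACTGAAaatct
Bst2, chr8:71537473-71537722, minus strand: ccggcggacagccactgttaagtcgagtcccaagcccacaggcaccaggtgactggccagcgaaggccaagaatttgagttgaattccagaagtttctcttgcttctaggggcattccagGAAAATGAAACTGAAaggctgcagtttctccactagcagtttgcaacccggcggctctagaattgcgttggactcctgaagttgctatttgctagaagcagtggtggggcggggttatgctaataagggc
Isg15, chr4:156200819-156201068, minus strand: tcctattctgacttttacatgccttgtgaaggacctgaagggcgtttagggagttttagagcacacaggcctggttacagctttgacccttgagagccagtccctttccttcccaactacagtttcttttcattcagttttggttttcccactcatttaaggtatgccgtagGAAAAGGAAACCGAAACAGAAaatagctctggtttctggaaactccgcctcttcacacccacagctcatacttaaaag
Ifit1, chr19:34640639-34640888, plus strand: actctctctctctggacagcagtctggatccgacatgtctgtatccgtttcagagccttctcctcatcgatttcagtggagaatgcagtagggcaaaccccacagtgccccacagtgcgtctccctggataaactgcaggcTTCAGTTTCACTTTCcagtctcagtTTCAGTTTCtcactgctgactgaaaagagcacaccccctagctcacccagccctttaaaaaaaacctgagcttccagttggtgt
The Oas1a matches began 20 and 14 bases before the start, those of Bst2 130 and 124, and that of Stat2 221 bases before it. Isg15 had 3 overlapping matches from 78 to 66 bases before the start, and Ifit1 had 3 from 109 to 84. A window of 250 bases before to 50 after the start was given for 30 of the 37 members, and none for Dhx58, Zbp1, Usp18, Ly6a, Ly6e, Mx1 and Mx2. The ISRE core was in 14 of these 30, against 9.76% of 27025 genes with a window. The GAS core TTCNNNGAA, which reads the same on both strands, was in 10 of 30, against 9.55%. Of the called members described below, Xaf1, Irf9, Sp100, Ifi35, Ifitm1 and Ifngr1 had a window with no ISRE match.

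Part of the set had very little RNA in any medium. Of the 37 members 13 missed the filter, as did all but 12330 of the 24819 gene symbols. Of these 13 members, 11 stayed under 0.2 FPKM in every library. How many of all genes did so was not counted. Ifit1, whose protein binds viral RNA that lacks a host cap, was listed at 0 in all 9 libraries. Isg15, the ubiquitin-like protein that is attached to other proteins during the response, reached at most 0.121 FPKM. This corresponds to about 5.8 fragments over all libraries together. Ifit3 and Usp18, the protease that removes ISG15, reached at most 0.0438 and 0.0417 FPKM, about 4.6 and 5.6 fragments. Of the same kind were Oasl2, at most 0.0380 FPKM, Mx2, an antiviral GTPase, at most 0.0371, and Rsad2, the antiviral enzyme viperin, at most 0.0766. At this depth no difference between media could be read from these genes.

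Other untested members lay slightly above that level and were not alike across media, although none of these differences was tested. Ifit2 was at 0.185, 0.190 and 0.112 FPKM in EPSCM, 0.240, 0.106 and 0.0962 in 2iLIF, and 0.502, 0.536 and 0.469 in ES, so every ES library lay above the other 6. Mx1, the nuclear relative of Mx2 in mouse, was at 0.168, 0.170 and 0.198 FPKM in EPSCM, 0.135, 0.105 and 0.150 in 2iLIF, and 0, 0.0485 and 0 in ES, so here every ES library lay below the other 6. Tlr3, the endosomal receptor of double-stranded RNA, was listed at 0 in all EPSCM and 2iLIF libraries and at 0.119, 0.125 and 0.0575 FPKM in ES. Irf7, the factor that amplifies interferon production, was at 0.0733, 0.169 and 0.0834 FPKM in EPSCM, 0.0372, 0.0172 and 0.0208 in 2iLIF, and 0, 0.0422 and 0.0215 in ES. The interferon genes Ifnb1, Ifna4, Ifne and Ifng, taken from the list of other pathway genes, were listed at 0 in all libraries.

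**Figure D1:**
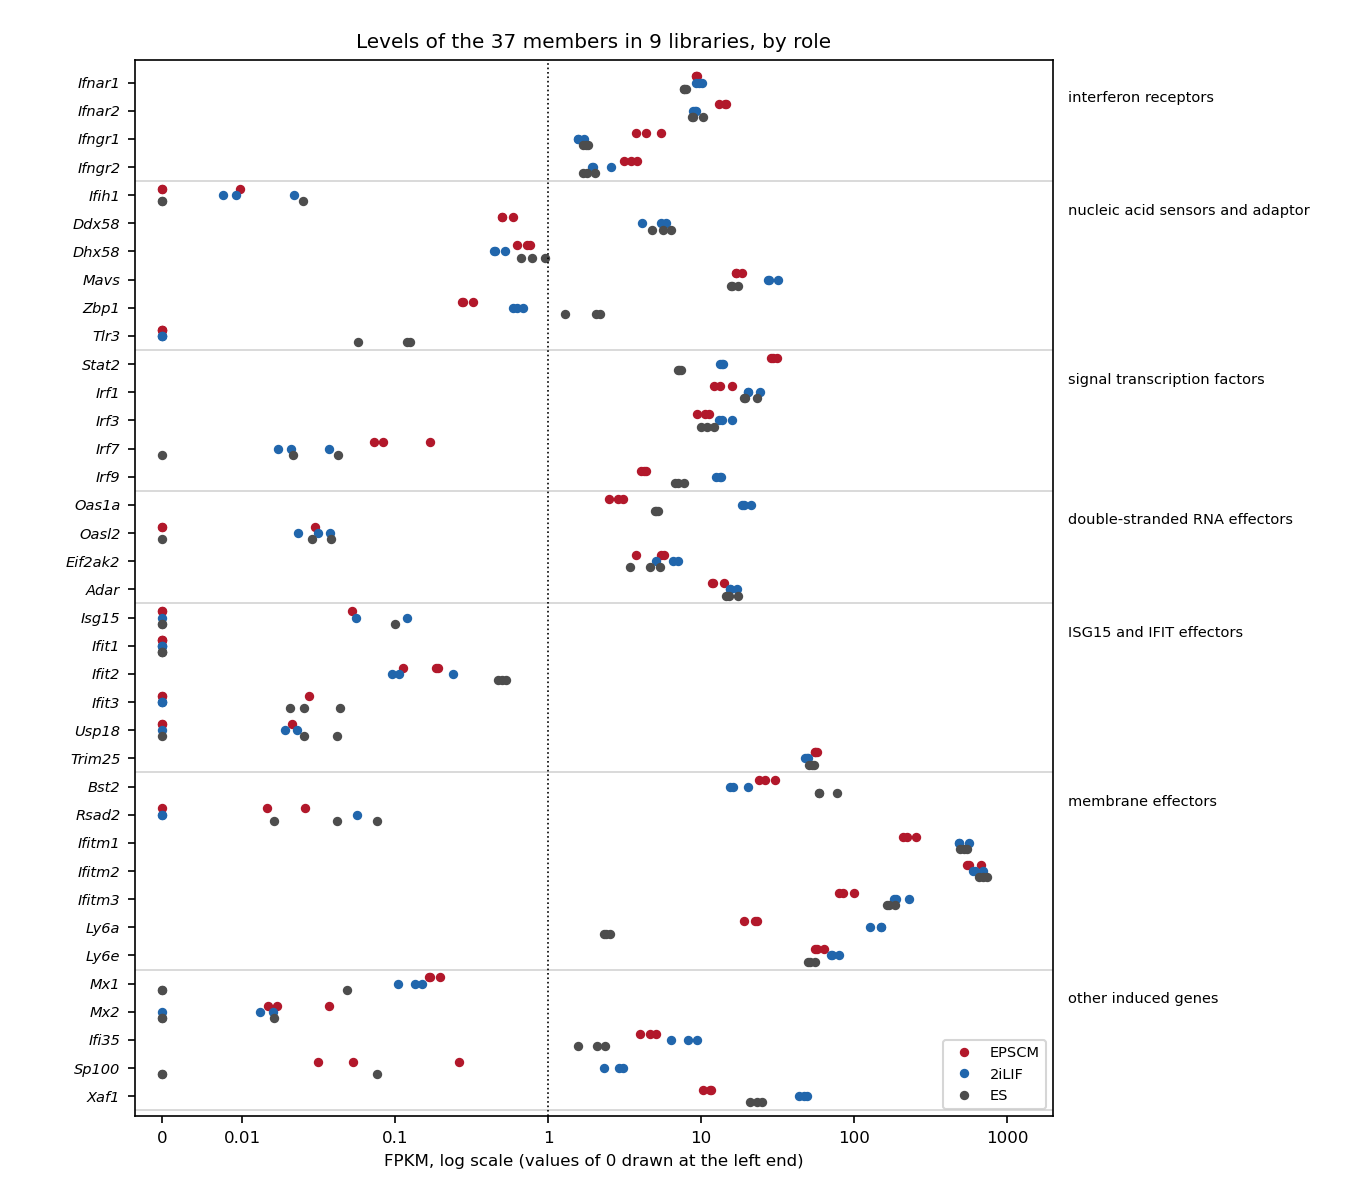
FPKM of each of the 37 members on a log axis, with members in rows by role, each library as a point coloured by medium, values of 0 at the left end and a dotted line at 1 FPKM. Ifit1, Isg15, Ifit3 and Usp18 stay at or near 0 in all libraries, while Ifitm1 and Ifitm2 are at 208 FPKM or more in each.

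The interferon receptors were all present, and 3 of the 4 were highest in EPSCM. Ifngr1, the ligand-binding chain of the interferon gamma receptor, stood at 4.38, 3.78 and 5.46 FPKM in EPSCM, against 1.72, 1.56 and 1.56 in 2iLIF and 1.69, 1.83 and 1.77 in ES. Every EPSCM library lay above the other 6, and the 2iLIF and ES libraries overlapped. Its mean was 2.81 times that in 2iLIF, a difference of 1.07 ± 0.10 (adjusted p = 1.41e-05), which was called higher. Against ES the difference was 0.99 ± 0.10 (adjusted p = 1.96e-05), just short of the fold limit. The call against 2iLIF rests on EPSCM 19: without that library the difference was 0.96, without all 3 libraries that stand apart 0.94, and after quantile normalization 0.86. In bulk RNA, fewer cells that express a gene and less RNA per cell cannot be told apart, here and in every result below.

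The other receptor chains differed by less and none was called. Ifngr2, the second chain of that receptor, averaged 3.47 ± 0.350 FPKM in EPSCM, 2.15 ± 0.360 in 2iLIF and 1.84 ± 0.173 in ES, with differences of 0.51 ± 0.10 for EPSCM against 2iLIF and 0.65 ± 0.10 against ES. Ifnar2, the chain of the type I receptor that binds STAT2, averaged 14.1 ± 0.863 FPKM in EPSCM, 9.12 ± 0.190 in 2iLIF and 9.29 ± 0.846 in ES, and differed by 0.57 ± 0.07 and 0.55 ± 0.07. Ifnar1, its partner chain, was flatter, at 9.33 ± 0.121 FPKM in EPSCM, 9.75 ± 0.461 in 2iLIF and 7.84 ± 0.119 in ES. Added together, the 4 chains came to 30.7 to 32.1 FPKM per EPSCM library, 22.2 to 23.2 in 2iLIF and 20.03 to 21.5 in ES. Ifnar2, Il10rb, Ifnar1 and Ifngr2 are consecutive tested genes on chromosome 16 in the GRCm38 gene order. Il10rb, a receptor chain for interleukin 10 and interferon lambda, picked here for its position after its values were seen, was at 3.42 ± 0.205 FPKM in EPSCM, 2.96 ± 0.124 in 2iLIF and 1.20 ± 0.199 in ES, and was called higher in EPSCM than in ES (1.01 ± 0.08, adjusted p = 3.05e-06). That call lay just past the fold limit, and whether it holds under other scaling is not given.

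**Figure D2:**
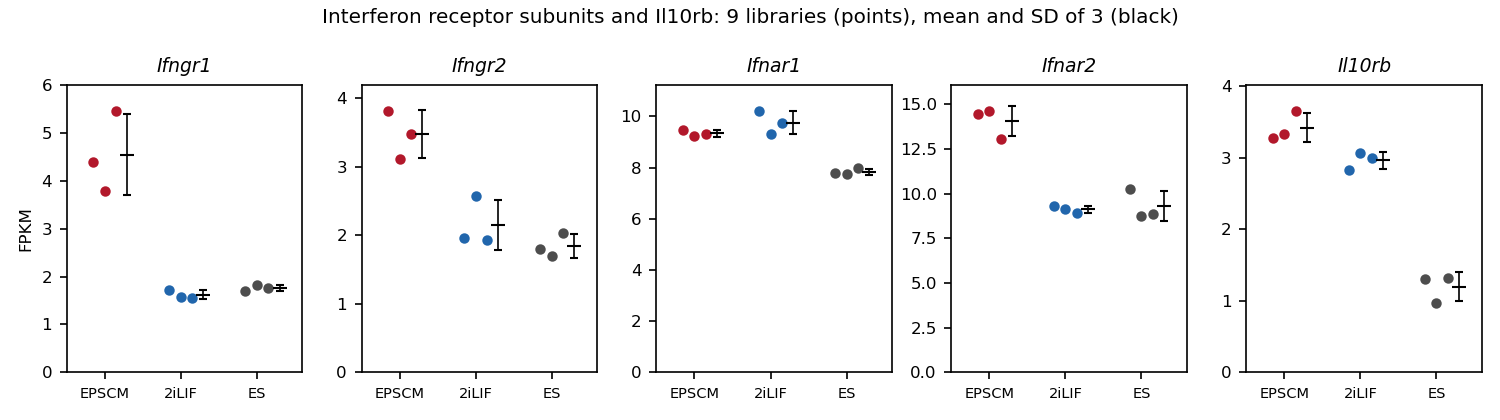
FPKM of 4 interferon receptor chains and of Il10rb in the EPSCM, 2iLIF and ES libraries, with each library as a point and the mean and SD of 3 libraries in black beside them, each panel on its own axis from 0. Ifngr1 is at 3.78 to 5.46 FPKM in EPSCM and under 2 FPKM in every 2iLIF and ES library.

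Of the transcription factors, Stat2 and Irf9, which act together in ISGF3, differed in their order across the media. Stat2 was at 28.9, 29.6 and 31.2 FPKM in EPSCM, 13.3, 13.9 and 13.7 in 2iLIF, and 7.36, 7.08 and 7.20 in ES. The media did not overlap, and the order was EPSCM, then 2iLIF, then ES. Its mean in EPSCM was 4.15 times that in ES (1.91 ± 0.05, adjusted p = 1.24e-08) and 2.19 times that in 2iLIF (1.08 ± 0.05, adjusted p = 2e-07), both called higher, while 2iLIF against ES was at 0.83 ± 0.05, under the fold limit. Irf9, the DNA-binding subunit, was at 4.04, 4.35 and 4.23 FPKM in EPSCM, 13.2, 12.6 and 13.4 in 2iLIF, and 7.76, 6.73 and 7.11 in ES. Here EPSCM was lowest and 2iLIF highest, again with no overlap. It fell in EPSCM against 2iLIF (-1.44 ± 0.06, adjusted p = 1.34e-07) and was not called in EPSCM against ES (-0.65 ± 0.06) or 2iLIF against ES (0.78 ± 0.06). The exons of Irf9 overlap those of Rnf31 on the same strand in GRCm38, and Rnf31 reached 24.6 FPKM, so the value of Irf9 is uncertain.

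Irf1, a factor that interferon gamma induces, was at 12.1, 13.2 and 15.9 FPKM in EPSCM, 20.2, 20.2 and 24.3 in 2iLIF, and 19.4, 19.2 and 23.4 in ES. Every EPSCM library lay below the other 6, but its differences of -0.61 ± 0.12 against 2iLIF and -0.56 ± 0.12 against ES did not reach the fold limit. Irf3, the factor that the sensors activate by phosphorylation, averaged 10.4 ± 0.971 FPKM in EPSCM, 14.2 ± 1.49 in 2iLIF and 11.1 ± 1.03 in ES, and no difference was called.

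The sensor Ddx58, which encodes RIG-I, had the largest fall of any member in EPSCM against ES. It stood at 0.500, 0.591 and 0.499 FPKM in EPSCM, 5.47, 5.87 and 4.11 in 2iLIF, and 6.36, 5.68 and 4.82 in ES. The EPSCM libraries lay far below the other 6, which overlapped. The mean in EPSCM was 10.6 times lower than in ES (-2.11 ± 0.12, adjusted p = 5.77e-07) and 9.73 times lower than in 2iLIF (-2.0 ± 0.12, adjusted p = 8.7e-07), while 2iLIF against ES was at -0.11 ± 0.12. With a pseudocount of 0.1 FPKM in place of 1, which shrinks low genes less, these falls were -3.18 and -3.05. Mavs, the mitochondrial adaptor of RIG-I, had another pattern: it averaged 17.6 ± 0.940 FPKM in EPSCM, 29.1 ± 2.53 in 2iLIF and 16.4 ± 0.932 in ES, with 2iLIF highest and no call in any comparison (-0.69 ± 0.08 for EPSCM against 2iLIF, 0.79 ± 0.08 for 2iLIF against ES). Ifih1, which encodes the related sensor MDA5, did not exceed 0.0251 FPKM in any library. Dhx58, which encodes LGP2, a regulator of both, averaged 0.706 ± 0.0730 FPKM in EPSCM, 0.475 ± 0.0461 in 2iLIF and 0.803 ± 0.145 in ES and missed the filter.

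Zbp1, a sensor of nucleic acids in the Z conformation that can start necroptosis, was at 0.324, 0.275 and 0.278 FPKM in EPSCM, 0.595, 0.692 and 0.629 in 2iLIF, and 1.30, 2.05 and 2.18 in ES. No media overlapped, and ES was highest. It fell in EPSCM against ES (-1.12 ± 0.11, adjusted p = 1.58e-05) but not past the limit in EPSCM against 2iLIF (-0.34 ± 0.11) or 2iLIF against ES (-0.78 ± 0.11). Zbp1 passed the filter on low values only through the ES libraries, so its entry into the test already depended on a difference. With a pseudocount of 0.1 FPKM its fall against ES was -2.28.

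Among the effectors that act on double-stranded RNA, Oas1a changed most. Its product makes the short adenylate chains that switch on RNase L. It was at 2.87, 2.51 and 3.11 FPKM in EPSCM, 18.6, 19.2 and 21.2 in 2iLIF, and 5.02, 5.06 and 5.23 in ES, with no overlap and 2iLIF far above the rest. The mean in EPSCM was 6.95 times lower than in 2iLIF (-2.43 ± 0.08, adjusted p = 2.04e-08), and that in 2iLIF was 3.85 times that in ES (1.76 ± 0.08, adjusted p = 1.13e-07). EPSCM against ES, at -0.68 ± 0.08, was not called. Oas1g, a close copy that may share its reads and was named for that reason after its values were seen, had the same order at 1.43 ± 0.337 FPKM in EPSCM, 7.76 ± 1.33 in 2iLIF and 2.40 ± 0.0977 in ES, so the split between the copies is uncertain. The neighbouring Oas1c, Oas2 and Oas3 had other orders. Oas2 averaged 0.580 FPKM in EPSCM, 0.566 in 2iLIF and 3.72 in ES. Oas1c and Oas3 had their lowest mean in 2iLIF. Eif2ak2, which encodes the kinase PKR, averaged 5.00 ± 1.09 FPKM in EPSCM, 6.25 ± 1.05 in 2iLIF and 4.48 ± 0.973 in ES, and the media overlapped. Its lowest value in each medium came from EPSCM 19, 2iLIF 18 or ES 16. Adar, which edits double-stranded RNA, averaged 12.7 ± 1.37 FPKM in EPSCM, 16.01 ± 1.05 in 2iLIF and 15.9 ± 1.52 in ES, with no call.

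**Figure D3:**
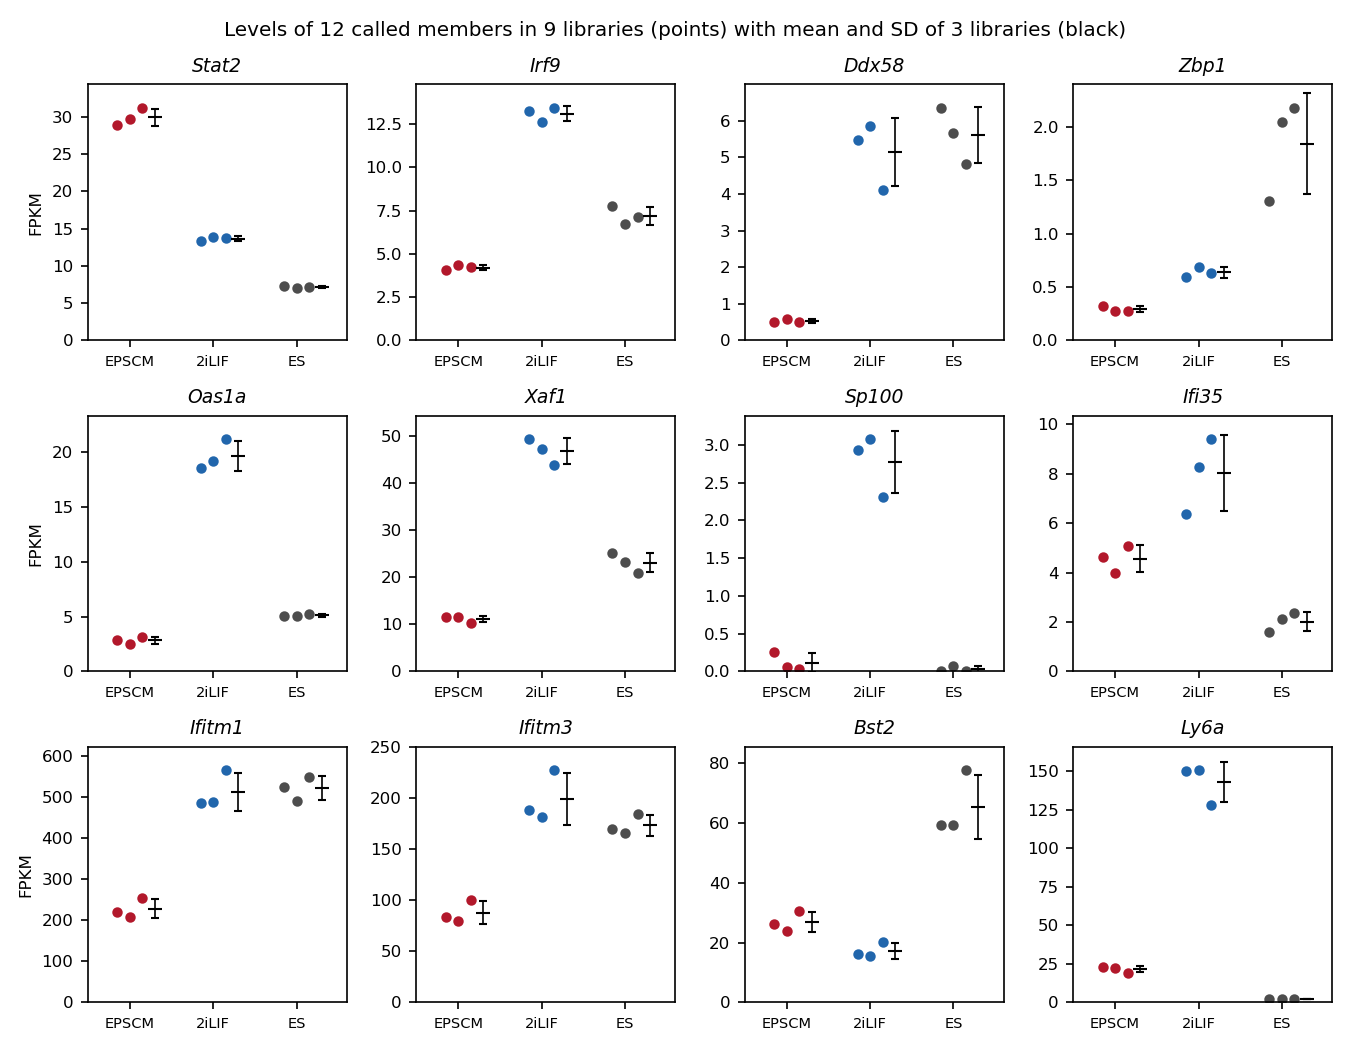
FPKM of 12 called members in the EPSCM, 2iLIF and ES libraries, with each library as a point and the mean and SD of 3 libraries in black, each panel on its own axis from 0. Stat2 is highest in EPSCM, Oas1a, Xaf1, Irf9, Sp100 and Ly6a in 2iLIF, and Bst2 and Zbp1 in ES, while Ddx58 is low in EPSCM alone among the media.

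The membrane effectors included the most abundant members. Ifitm2 averaged 596 ± 70.4 FPKM in EPSCM, 640 ± 49.1 in 2iLIF and 700 ± 43.2 in ES and was not called in any comparison. Its family neighbours, which like it hinder the entry of viruses at membranes, did differ. Ifitm1 was at 221, 208 and 253 FPKM in EPSCM, 484, 487 and 566 in 2iLIF, and 523, 491 and 550 in ES. All EPSCM libraries were below the other 6, which overlapped. The fall was -1.17 ± 0.09 against 2iLIF (adjusted p = 4.64e-06) and -1.20 ± 0.09 against ES (adjusted p = 3.44e-06), the call against ES being lost after quantile normalization at -0.99. Ifitm3 was at 84.2, 79.8 and 100.4 FPKM in EPSCM, 188, 182 and 228 in 2iLIF, and 170, 166 and 185 in ES. It fell in EPSCM against 2iLIF (-1.17 ± 0.11, adjusted p = 1.43e-05), and at -0.97 ± 0.11 (adjusted p = 3.98e-05) it missed the limit in EPSCM against ES. Within each medium, all 3 genes were highest in the library that stands apart (EPSCM 19, 2iLIF 18 or ES 16), and the part of that split in their spread was not tested.

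Bst2, or tetherin, which holds budding virus at the cell surface, had ES as its high medium. It was at 26.1, 23.8 and 30.5 FPKM in EPSCM, 16.1, 15.4 and 20.3 in 2iLIF, and 59.3, 59.3 and 77.8 in ES. It fell in EPSCM against ES (-1.25 ± 0.14, adjusted p = 4.33e-05) and in 2iLIF against ES (-1.86 ± 0.14, adjusted p = 4.24e-06), and EPSCM against 2iLIF was at 0.61 ± 0.14, not called. Bst2 was the only member called lower in 2iLIF than in ES.

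Ly6a, the surface protein Sca-1, known as a marker of blood stem cells in mouse and induced by interferon, was the only member called in all 3 comparisons. It stood at 23.1, 22.5 and 19.2 FPKM in EPSCM, 150, 151 and 128 in 2iLIF, and 2.40, 2.31 and 2.53 in ES, with wide gaps between the media. Its mean in 2iLIF was 59.2 times that in ES (5.39 ± 0.09, adjusted p = 1.25e-09), and that in EPSCM was 8.95 times that in ES (2.72 ± 0.09, adjusted p = 3.01e-08). EPSCM was 6.61 times lower than 2iLIF (-2.67 ± 0.09, adjusted p = 2.89e-08). Its neighbour Ly6c1, named for its position after its values were seen, had differences of 0.07, -1.85 and 1.92 for EPSCM over ES, EPSCM over 2iLIF and 2iLIF over ES. Ly6k, also nearby, had 1.7, 2.16 and -0.47 in the same order. Ly6 genes share sequence, so their single values are uncertain. Ly6e, another family member, was much flatter at 59.1 ± 4.35 FPKM in EPSCM, 74.0 ± 5.24 in 2iLIF and 52.5 ± 2.98 in ES and was not called.

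The 3 tested members among the other induced genes were highest in 2iLIF, but Sp100 had entered the test only through that medium. Mx1, an untested gene of this group, averaged 0.179 FPKM in EPSCM, 0.130 in 2iLIF and 0.0162 in ES. Xaf1, a protein that binds the apoptosis inhibitor XIAP, was at 11.5, 11.6 and 10.3 FPKM in EPSCM, 49.5, 47.3 and 44.0 in 2iLIF, and 25.2, 23.2 and 21.0 in ES. No media overlapped. EPSCM was 4.22 times lower than 2iLIF (-1.98 ± 0.08, adjusted p = 8.01e-08), and the differences of -0.99 ± 0.08 for EPSCM against ES and 0.99 ± 0.08 for 2iLIF against ES stopped just short of the limit, and several alternatives crossed it. Ifi35, a partner of NMI in cytokine signalling, was at 4.64, 3.998 and 5.06 FPKM in EPSCM, 6.37, 8.28 and 9.41 in 2iLIF, and 1.58, 2.10 and 2.35 in ES, with no overlap. It rose in 2iLIF against ES to 3.99 times the ES mean (1.58 ± 0.14, adjusted p = 1.37e-05), and EPSCM, in between, was not called against either (0.89 ± 0.14 against ES, -0.69 ± 0.14 against 2iLIF).

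Sp100, a component of PML nuclear bodies, was near 0 outside 2iLIF: it was at 0.260, 0.0528 and 0.0313 FPKM in EPSCM, 2.93, 3.08 and 2.31 in 2iLIF, and 0, 0.0768 and 0 in ES. It was called lower in EPSCM than in 2iLIF (-1.76 ± 0.10, adjusted p = 5.86e-07) and higher in 2iLIF than in ES (1.88 ± 0.10, adjusted p = 4.34e-07). Sp100 passed the filter only through the 2iLIF libraries, so its entry into the test already depended on a difference. With a pseudocount of 0.1 FPKM these differences of Sp100 were -3.88 and 4.56. Sp100 and Aim2, described below, lie on chromosome 1, whose tested genes had a median difference of -0.29 in EPSCM against ES, against 0.11 for the other chromosomes, of -0.28 in 2iLIF against ES, against 0.04, and of -0.05 in EPSCM against 2iLIF, against 0.03. The part of this shift in the values of those genes was not tested. Trim25, the ubiquitin ligase that acts on RIG-I, was the only tested member of the ISG15 and IFIT group. It averaged 56.4 ± 0.919 FPKM in EPSCM, 49.1 ± 1.20 in 2iLIF and 53.0 ± 1.80 in ES, and was not called.

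Of the 24 tested members, 13 were called at least once, 6 of them in 2 comparisons and Ly6a in all 3. The matching shares of all tested genes were not counted, so these numbers have no background. Called either way were 19.65% of all tested genes in EPSCM against ES, 16.05% in EPSCM against 2iLIF and 14.74% in 2iLIF against ES. In EPSCM against ES, Ly6a and Stat2 were higher, 2 of 24, where 11.7% of all tested genes were, and Bst2, Ddx58, Ifitm1 and Zbp1 were lower, 4 of 24, where 7.97% of all were. The median difference of the tested members was 0.00, against 0.09 over all tested genes, and in 18 of the 24 the libraries of the media did not overlap, as in 74.1% of all tested genes. In EPSCM against 2iLIF, Stat2 and Ifngr1 were higher, 2 of 24 against a background of 10.1%. The lower members were Ddx58, Ifitm1, Ifitm3, Irf9, Ly6a, Oas1a, Sp100 and Xaf1, 8 of 24 against a background of 5.91%. Here 18 of 24 differences were negative, with 12 in EPSCM against ES and 8 in 2iLIF against ES. Signs were not counted over all genes. The median in EPSCM against 2iLIF was -0.38 against 0.03 over all tested genes, and 21 of 24 did not overlap, against 71.1% of all. In 2iLIF against ES, Ifi35, Ly6a, Oas1a and Sp100 were higher, 4 of 24 against a background of 7.62%, and Bst2 was lower, 1 of 24 against a background of 7.12%. The median was 0.24 against 0.03 over all tested genes, and 14 of 24 did not overlap, against 70.6% of all. Sp100 and Zbp1 reached 1 FPKM in the libraries of 1 medium only, so their entry into the test already depended on a difference. Without such genes, 3 of 22 members were lower in EPSCM against ES, where 7.61% of all genes tested without them were. In the same way 7 of 22 were lower in EPSCM against 2iLIF, where 5.56% of genes were, and 3 of 22 were higher in 2iLIF against ES, where 7.3% of genes were. These comparisons share libraries, so their counts are not independent of each other. The members were chosen with earlier results of these data known, so the counts are not an independent result either. Over all genes, the calls split into 1440 higher and 983 lower in EPSCM against ES and 1250 and 729 in EPSCM against 2iLIF. Quantile normalization gave 1141 and 1162, and 1010 and 902. In the libraries other than EPSCM 19, 2iLIF 18 and ES 16, the member counts were 2 higher and 6 lower in EPSCM against ES, 1 and 8 in EPSCM against 2iLIF, and 4 and 1 in 2iLIF against ES. Over all genes the counts in those libraries were 1452 and 971, 1238 and 730, and 938 and 879. With 1 library in each medium, those that stand apart allow no test of their own.

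**Figure D4:**
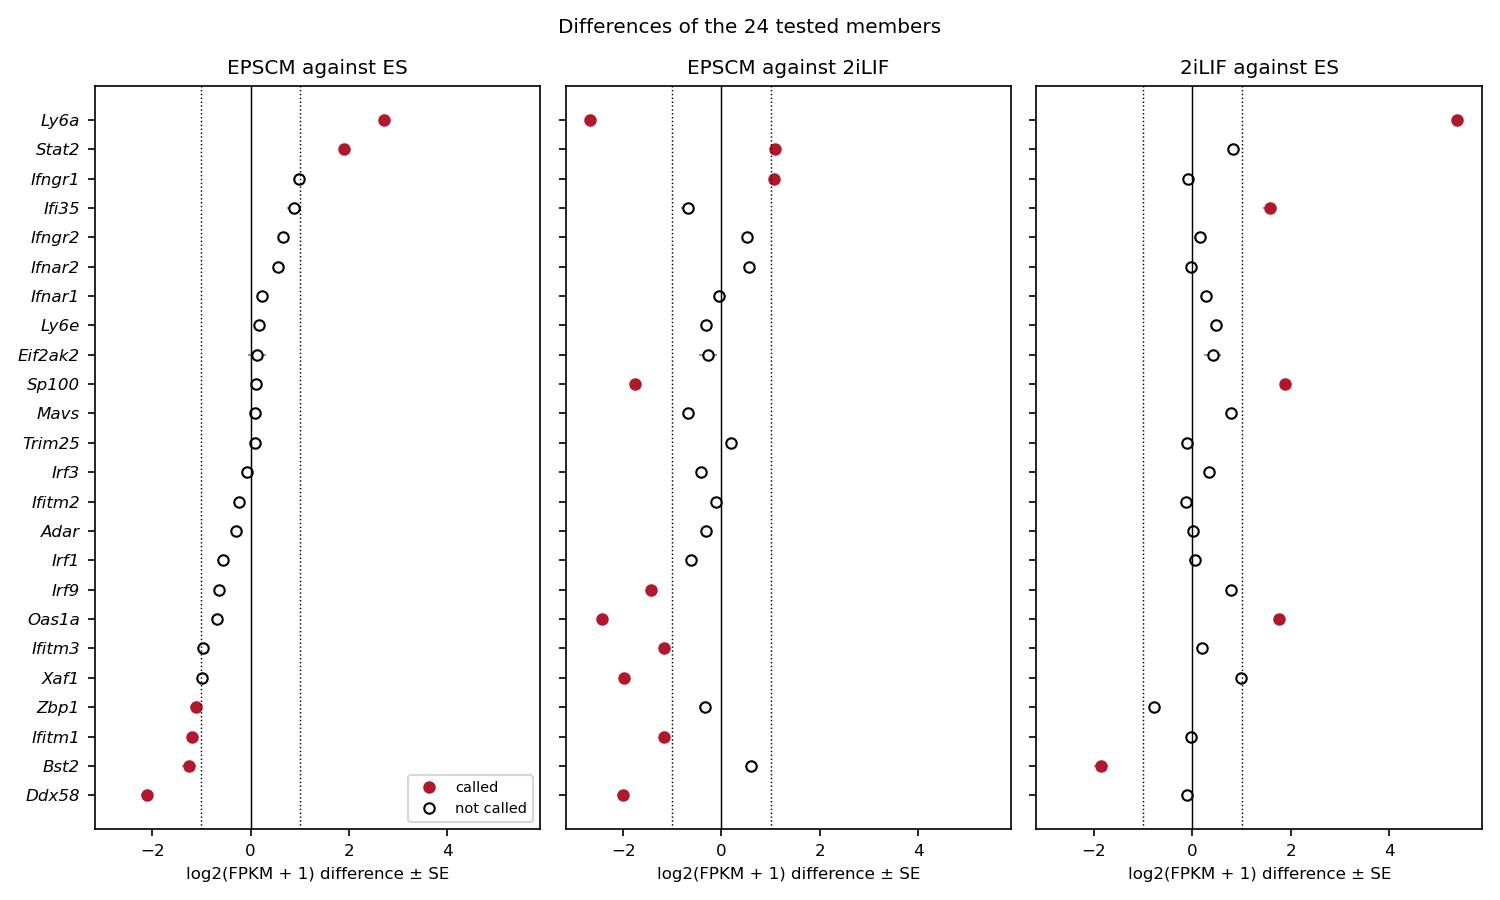
log2(FPKM + 1) difference of each tested member, with its standard error as a bar, for EPSCM over ES (left), EPSCM over 2iLIF (middle) and 2iLIF over ES (right), with the fold limit of 1 on each side as lines and called genes marked. The largest difference is that of Ly6a in 2iLIF against ES, at 5.39. Of the 24 members, 12 lie below 0 in EPSCM against ES, 18 in EPSCM against 2iLIF and 8 in 2iLIF against ES.

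The other genes of the pathway, 84 listed signalling and induced genes that are not members, all had a row in the table, and 49 were tested. In EPSCM against ES 9 of the 49 were higher and 7 lower, beside 11.7% and 7.97% of all tested genes. In EPSCM against 2iLIF the counts were 6 and 6, beside 10.1% and 5.91%, and in 2iLIF against ES 7 and 3, beside 7.62% and 7.12%. Their median differences were 0.25, -0.07 and 0.09, and those of all tested genes 0.09, 0.03 and 0.03. Among the 22 tested induced genes, 4 were higher and 3 lower in EPSCM against ES, 3 and 4 in EPSCM against 2iLIF, and 5 and 2 in 2iLIF against ES, to be read beside the same shares of all genes. Of these 22, 4 reached 1 FPKM in 1 medium only. Without them the counts among 18 genes were 4 and 2, 3 and 3, and 4 and 1. The shares of all genes tested without such genes were 10.8% and 7.61%, 8.81% and 5.56%, and 7.3% and 6.58%. Ube2l6, the enzyme that conjugates ISG15, was the furthest apart in EPSCM against ES, at 8.91 ± 0.847 FPKM in EPSCM, 1.38 ± 0.0842 in 2iLIF and 0.579 ± 0.109 in ES (2.65 ± 0.08, adjusted p = 2.04e-08 against ES and 2.06 ± 0.08 against 2iLIF), while its partner Isg15 was near 0. Ifi30, a thiol reductase of lysosomes, was at 171 ± 16.4 FPKM in EPSCM, 35.8 ± 2.83 in 2iLIF and 35.3 ± 3.41 in ES and rose against both (2.24 ± 0.10 against ES and 2.22 ± 0.10 against 2iLIF). Rnf213, a large ubiquitin ligase, was at 19.9 ± 0.292 FPKM in EPSCM, 26.3 ± 0.346 in 2iLIF and 5.30 ± 0.195 in ES, and was called higher than in ES in EPSCM (1.73 ± 0.05) and in 2iLIF (2.12 ± 0.05). Ifi27, a mitochondrial protein, was at 1.40 ± 0.249 FPKM in EPSCM, 3.95 ± 0.805 in 2iLIF and 0.421 ± 0.1001 in ES, and rose in 2iLIF against ES (1.79 ± 0.13).

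In the signalling list, with 27 tested genes, 5 were higher and 4 lower in EPSCM against ES, 3 and 2 in EPSCM against 2iLIF, and 2 and 1 in 2iLIF against ES, beside the shares of all genes given above. Aim2, which forms an inflammasome on cytosolic DNA, was at 12.04 ± 2.70 FPKM in EPSCM, 25.2 ± 5.37 in 2iLIF and 2.79 ± 0.590 in ES, higher than in ES both in EPSCM (1.77 ± 0.20, adjusted p = 4.15e-05) and in 2iLIF (2.78 ± 0.20, adjusted p = 2.87e-06), and lower in EPSCM than in 2iLIF (-1.01 ± 0.20, adjusted p = 0.00175). Tmem173, which encodes the adaptor STING, was at 0.611 ± 0.102 FPKM in EPSCM, 6.19 ± 0.209 in 2iLIF and 2.29 ± 0.121 in ES and was 10.1 times lower in EPSCM than in 2iLIF (-2.16 ± 0.06, adjusted p = 1.81e-08). It was also lower in EPSCM than in ES (-1.03 ± 0.06, adjusted p = 9.12e-07) and higher in 2iLIF than in ES (1.13 ± 0.06, adjusted p = 6.49e-07). Aim2 and Tmem173 thus moved the same way in EPSCM against 2iLIF and in 2iLIF against ES, and opposite ways in EPSCM against ES. The calls of Aim2 in EPSCM against 2iLIF and of Tmem173 in EPSCM against ES lay just past the fold limit. Whether they hold under other scaling is not given. The lowest Aim2 value in each medium came from EPSCM 19, 2iLIF 18 or ES 16. Socs3, a feedback inhibitor of JAK kinases that LIF also induces, was at 88.8 ± 7.17 FPKM in EPSCM, 22.7 ± 1.02 in 2iLIF and 116 ± 12.5 in ES, higher in EPSCM than in 2iLIF (1.92 ± 0.09) and lower in 2iLIF than in ES (-2.30 ± 0.09).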

How the data were processed

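Messenger RNA of E14 cells in 3 media was measured in 9 libraries, 3 per medium, with a stranded kit, per the labels' protocols. The deposited values are FPKM per gene. The authors used STAR, Cuffnorm and build mm9, per the submitters' processing notes. Tool versions, the gene annotation, how libraries were scaled and whether strand was used: not given in the sources used here. Because FPKM is relative to the library total, a few abundant genes can shift the others, and the precision of low genes cannot be taken from counts.

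Values were taken as log2(FPKM + 1), that is with a pseudocount of 1, and genes at 1 FPKM or more in at least 3 libraries were kept. One limma model (limma 3.58.1, R 4.3.3, empirical Bayes with a variance trend) with a mean per medium was fitted over all 12330 kept genes, with Benjamini-Hochberg adjustment over all of them, and was tested on simulated data. Members and lists were chosen with earlier results of these data known. Every called member is given in full, and of the other pathway genes for each of the 3 comparisons the 4 furthest apart among those called, if the higher medium averaged 1 FPKM or more. A further gene that the rule names is not reported here. The labels number the 9 libraries without any number shared between media, so the numbers pair no libraries. Names, gene order and promoter sequences came from RefSeq tables of GRCm38, with 24734 of 24819 symbols matched, and none of their coordinates was compared with mm9. Transcript lengths for the fragment estimates came from GENCODE. The 23 alternatives covered scaling, pseudocount, filter, fold limit, covariates, array weights and leaving out libraries.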

Additional observations from a re-analysis of the deposited data

How the results depend on the processing

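Of 21 called differences of members, 19 were called in each of the 23 alternatives that tested them, and none reversed; a filter on a mean of at least 1 FPKM left Sp100 and Zbp1 untested. The exceptions were Ifitm1 in EPSCM against ES (-0.99 after quantile normalization) and Ifngr1 in EPSCM against 2iLIF, described above. Members called higher in EPSCM against 2iLIF fell to 1 after quantile normalization and to 1 without libraries 16, 18 and 19. Over all genes these counts were 1010 and 1238, against 1250 with neither change. With a pseudocount of 0.1, 4 members and 2101 of all genes were higher in EPSCM against ES, 2 members were lower in 2iLIF against ES, and 1361 of all genes were lower in 2iLIF against ES. With no fold limit, 7 members were higher and 10 lower in EPSCM against ES, 6 and 15 in EPSCM against 2iLIF, and 11 and 2 in 2iLIF against ES; over all genes these were 5133 and 3882, 4511 and 3870, and 4294 and 3971. Leaving out 1 library at a time gave 2 to 3 members higher and 4 to 5 lower in EPSCM against ES, 1 to 2 and 8 in EPSCM against 2iLIF, and 4 to 5 and 1 in 2iLIF against ES. Over all genes these were 1430 to 1496 and 959 to 996, 1225 to 1278 and 727 to 750, and 930 to 986 and 878 to 909. Of 51 differences that were not called, 9 changed sign in at least 1 alternative. In 2iLIF against ES, median ratio scaling gave Adar -0.032, quantile normalization gave Irf1 -0.011, Ifitm1 0.155, Ifitm2 0.068 and Adar -0.072, and scaling to the same sum gave Ifitm1 0.027 and Ifnar2 0.028. In EPSCM against ES, median ratio scaling gave Trim25 -0.008 and quantile normalization gave Eif2ak2 -0.096. Array weights gave Irf3 0.006 in EPSCM against ES and Ifnar2 0.033 in 2iLIF against ES. Leaving out 1 library at a time gave Adar -0.037 to 0.086, Ifitm1 -0.100 to 0.012, Ifnar2 -0.058 to 0.046, Irf1 -0.030 to 0.143 and Ddx58 -0.200 to 0.018 in 2iLIF against ES, and Eif2ak2 -0.015 to 0.288 in EPSCM against ES. The cause of these changes was not tested. The differences just short of the fold limit, Ifitm3 and Ifngr1 in EPSCM against ES and Xaf1 against ES in both media, were past it in several alternatives. For the members near 0, depth is the limit. No paired analysis was possible because the labels give each library its own number, none shared between media. With libraries 16, 18 and 19 as a covariate, the member counts were 2 and 4, 2 and 8, and 4 and 1 in the same order of comparisons, as without it. Over all genes the counts with it were 1441 and 988, 1252 and 730, and 939 and 882.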
